A study of Mus musculus with 2 samples.

Results

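The cells described here were 504 of the 14688 cells that passed the cell filter in 2 single-cell libraries, and they carried RNA of the transcription factor genes Foxd3 and Lhx1 or Lhx5. Both libraries came from the MM13 mouse embryonic stem cell line after 9 days of differentiation, 1 with retinoic acid (RA) and 1 with RA and bone morphogenetic protein 4 (RA+BMP4), so RA and the MM13 genotype were common to both groups. The labels name 1 culture and 1 library for each condition and give no doses; cells were dissociated with trypsin and dead cells were removed before capture. Cells passed the filter with 1000 or more genes and 10% or less mitochondrial UMIs. A cell was a member if it had at least 1 UMI (unique molecular identifier, 1 counted RNA molecule) of Foxd3, at least 2 of Lhx1 and Lhx5 together, none of Sox10, fewer than 2 of Barhl1 and Barhl2 together and fewer than 3 of Pou5f1. Sox10 marks neural crest and Pou5f1 marks pluripotent cells, 2 other places where Foxd3 RNA can occur. Barhl1 and Barhl2 mark the most dorsal spinal interneurons (dI1). With RA 116 of 6038 cells were members (1.92%, interval 1.59 to 2.30), and with RA+BMP4 388 of 8650 (4.49%, interval 4.06 to 4.94), a share ratio of 2.33. All intervals given are exact 95% intervals that cover counting error only. With 1 library for each condition no test between conditions was possible, and the effect of BMP4, of the culture and of the library cannot be told apart.

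Dorsal spinal interneurons arise from progenitor domains that lie in dorsal to ventral order and read BMP and Wnt signals of the roof plate. The dI2 interneurons arise next to the dI1 neurons, switch on Foxd3, Lhx1 and Lhx5, and send commissural axons across the midline to the brain stem and cerebellum. They are known as excitatory neurons. Foxd3 is also used by V1 interneurons, which are ventral, inhibitory and marked by En1 and Pax2. The homeobox genes Hmx2 and Hmx3 and the nuclear receptor gene Nr4a2 were the 3 markers of dI2 that the choice of members did not use, and the description starts with them. Hmx2 and Hmx3 are neighbours on chromosome 7 in GRCm38, at chr7:131548773-131558014 and chr7:131542867-131544925 on the plus strand, with 3847 bases between them.

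The stretches upstream of the start sites of these 3 markers are shown because these genes, which did not choose the members, separated them from other neurons (values follow). They are RefSeq sequence of GRCm38.p6, 5′ to 3′ on the strand of the gene, and capitals mark the GC box GGGCGG or its reverse complement CCGCCC. The Hmx3 stretch, chr7:131542713-131542866 on the plus strand, is the part of the 250 bases before the RefSeq start that lies in no annotated exon. The Hmx2 stretch, chr7:131548507-131548756 on the plus strand, precedes the more upstream of 2 RefSeq starts. The Nr4a2 stretch, chr2:57124004-57124253 on the minus strand, directly precedes the annotated gene.
Hmx3: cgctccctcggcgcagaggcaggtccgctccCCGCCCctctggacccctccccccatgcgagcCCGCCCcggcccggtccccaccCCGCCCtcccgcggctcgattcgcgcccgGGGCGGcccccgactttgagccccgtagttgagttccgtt
Hmx2: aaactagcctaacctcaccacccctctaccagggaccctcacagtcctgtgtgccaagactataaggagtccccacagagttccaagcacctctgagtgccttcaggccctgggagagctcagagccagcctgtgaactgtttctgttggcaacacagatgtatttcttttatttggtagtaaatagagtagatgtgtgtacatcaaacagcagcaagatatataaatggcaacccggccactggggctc
Nr4a2: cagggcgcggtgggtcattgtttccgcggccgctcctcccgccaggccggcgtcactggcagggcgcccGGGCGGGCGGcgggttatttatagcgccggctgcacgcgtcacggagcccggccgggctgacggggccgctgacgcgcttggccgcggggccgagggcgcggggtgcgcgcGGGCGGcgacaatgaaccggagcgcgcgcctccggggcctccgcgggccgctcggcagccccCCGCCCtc

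The printed Hmx3 stretch holds 4 GC boxes and the Nr4a2 stretch also holds 4, of which 1 pair overlaps, while the Hmx2 stretch holds 0. The window of the second RefSeq start of Hmx2, the one that matches an annotated transcript, is not printed because 232 of its 250 bases lie in annotated exons, and it holds 3 GC boxes. GC boxes were found on either strand in 32.7% of all 32851 RefSeq windows of 250 bases. The GC content was 80.0% in the Nr4a2 window, 49.6% in the upstream and 70.0% in the second Hmx2 window, against a median of 52.4% over all windows. Searches on both strands for the homeodomain core TAATTA, the Hmx and Nkx core CAAGTG and the forkhead core TGTTTAC found 0 matches in the windows of the 9 leading genes that had an entry. These letters occurred in 4.84%, 11.6% and 3.17% of all windows. A match or its absence describes letters in a window and nothing about a factor.

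The 2 libraries held 9704 barcodes with 122110565 UMIs in RA and 13121 barcodes with 115268932 UMIs in RA+BMP4. Members had a median of 14809 UMIs in RA (4467 to 139412) and 10839 in RA+BMP4 (2744 to 73106), so shares of cells with a UMI are given after every cell was thinned to 5000 UMIs, which left out 1 RA and 12 RA+BMP4 members. The libraries shared 43 barcode sequences, and none of the members had a barcode that also occurred in the other library. Scrublet called 5 RA members (4.31%) and 23 RA+BMP4 members (5.93%) as doublets. They were kept, and for the calls named here that end without them the value is given. The deepest RA member was called a doublet and held 6.94% of all member UMIs of its library, including 64 of the 100 UMIs of the collagen gene Col3a1. Members of RA+BMP4 had less mitochondrial RNA, with a median of 4.31% against 6.59%, as did the passing cells of that library as a whole, with 4.22% against 6.06%.

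The number of cells at the edges of the rule shows how the group depends on single molecules. Foxd3 was seen as exactly 1 UMI in 47 of the 116 RA members and 133 of the 388 RA+BMP4 members, and a further 1193 RA and 788 RA+BMP4 cells met every other condition with 0 UMIs of Foxd3. Lhx1 and Lhx5 summed to exactly 2 UMIs in 12 RA and 41 RA+BMP4 members, and 7 RA and 64 RA+BMP4 cells lay just outside with 1. Of all cells with a UMI of Foxd3, 223 in RA and 651 in RA+BMP4, those with 3 or more UMIs of Pou5f1 and no Sox10 numbered 71 and 22, and those with Sox10 numbered 2 and 42. Lhx1 was the LIM gene of nearly all members, in 115 RA and 383 RA+BMP4 cells, and Lhx5 was seen in 55 and 204. When the rule was applied after thinning to 5000 UMIs, it held for 45 of 5849 cells with RA (0.769%) and 199 of 8064 with RA+BMP4 (2.47%), a ratio of 3.21.

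Members were neurons by markers that did not choose them. Tubb3, a neuronal tubulin gene, was found in 97.4% of RA and 99.5% of RA+BMP4 members, and Stmn2, a neuronal microtubule regulator, in 90.4% and 95.2%. Free RNA in a droplet can be counted in a cell that lacks the transcript. Shares are therefore set beside those of collagen-rich cells, which had at least 20 UMIs of the collagen genes Col1a1 and Col1a2 together and median depths of 29925 UMIs in RA and 20703 in RA+BMP4. Those cells had Tubb3 in 14.9% and 23.6%. Collagen-rich cells can also transcribe a gene themselves, so their shares are not a measure of free RNA alone. The 5 mesenchyme markers summed to 93.6 and 103 CPM in members (CPM, counts summed over cells per 1000000 of their UMIs), with 2 of 5 seen in over 10% of members, and to 3569 and 3778 CPM in collagen-rich cells. Neural crest and glia markers other than Sox10 summed to 7.96 CPM (RA) and 8.62 CPM (RA+BMP4) in members, 2 of 4 being at 0 in RA. Markers of pluripotent cells other than Pou5f1 summed to 39.8 and 12.7 CPM.

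Hmx2, Hmx3 and Nr4a2, the dI2 markers that did not choose the members, were seen in members of both libraries. They are markers of the label itself and were picked with earlier results of these data known. Members also held markers of other classes. Summed levels were 222 CPM in RA and 324 CPM with BMP4 for these 3 dI2 markers. They were 238 and 146 CPM for the V1 markers and 153 and 17.7 CPM for the dI4 markers. The dI5 markers summed to 214 and 212 CPM, with 3 and 1 of 6 seen in over 10% of members. That sum includes Pou4f1, a factor of several dorsal excitatory neurons and not of dI5 alone. Hmx2 was found in 36.5% of RA members (interval 27.7 to 46.0) and 35.9% of RA+BMP4 members (31.1 to 41.0), and in 0 of 215 and 0 of 157 collagen-rich cells. Zero cells of 215 and 157 allow shares of up to 1.70% and 2.32%. Hmx3 was found in 27.0% and 29.5% of members. At least 1 of the pair was seen in 57 of 115 RA members (49.6%, interval 40.1 to 59.0) and 194 of 376 RA+BMP4 members (51.6%, interval 46.4 to 56.8), against 0 and 0.637% of collagen-rich cells. Without thinning the shares were 63.8% and 67.5%. Nr4a2 was found in 16.5% of RA members (10.3 to 24.6) and 21.0% of RA+BMP4 members (17.0 to 25.5), against 3.26% and 3.82% of collagen-rich cells. All 3 shares had overlapping intervals in the 2 libraries.

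**Figure D1:**
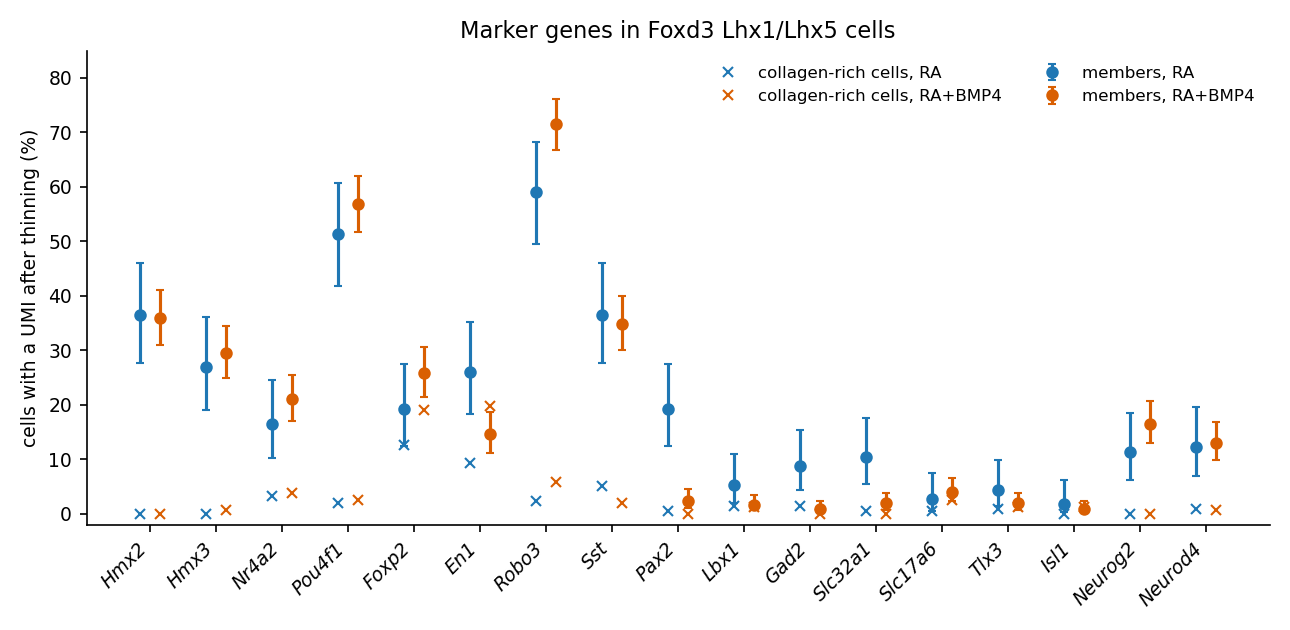
Share of members with at least 1 UMI of each gene after thinning to 5000 UMIs, in percent, with exact 95% intervals for 115 RA (blue) and 376 RA+BMP4 members (orange); crosses give the collagen-rich cells of the same library. Hmx2 and Hmx3 stand at similar heights in both libraries, Pax2, Gad2 and Slc32a1 stand higher in RA, and Slc17a6 lies near the crosses.

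Other transcription factors and transmitter genes were seen to different degrees. Pou4f1, a POU factor of several dorsal excitatory neurons, was found in 51.3% of RA and 56.9% of RA+BMP4 members, against 1.86% and 2.55% of collagen-rich cells. The dI3 marker Isl1 was found in 1.74% and 0.798% of members, and the dI3 and dI5 marker Tlx3 in 4.35% and 1.86%, against 0.930% and 1.27% of collagen-rich cells for Tlx3. The dI1 markers Lhx2, Lhx9 and Atoh1 summed to 0 CPM in members of RA and 4.09 CPM in those of RA+BMP4, and to 304 and 189 CPM in the Barhl cells of the same libraries. Slc17a6, the vesicular glutamate transporter gene of excitatory spinal neurons, was found in 3 of 115 RA members (2.61%) and 15 of 376 RA+BMP4 members (3.99%, interval 2.25 to 6.49). Collagen-rich cells had it in 0.465% and 2.55% (0.698 to 6.39), with intervals that overlap those of the members, and the Barhl cells in 31.7% and 49.7%. Slc17a6 in members thus did not stand above its share in collagen-rich cells at this depth. En1, the V1 marker, was found in 26.1% of RA members and 14.6% of RA+BMP4 members, but collagen-rich cells had it in 9.30% and 19.7%, so that only the RA share stood above that level.

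To see which genes set members apart, their summed counts were compared within each library with 3 groups of neurons. These were Barhl cells (147 in RA, 1651 in RA+BMP4), Pax2 cells with Lhx1 or Lhx5 (750 and 277) and Tlx3 cells with fewer than 2 UMIs of Lhx1 and Lhx5 (825 and 455), all without Foxd3. The Tlx3 cells of RA+BMP4 also held progenitor markers, 647 CPM against 219 CPM in RA. A ratio here is the CPM of members with 5 CPM added, divided by the highest of the 3 groups with 5 CPM added. Of 8009 genes tested, 16 (0.2%) were at least 2-fold above all 3 groups in both libraries, and 0 (0%) were 2-fold below all of them in both. In the libraries on their own, 22 genes (0.275%) passed in RA and 26 (0.325%) in RA+BMP4. The 20 highest genes, ranked in RA+BMP4, were above all 3 groups in RA for 19 genes and at least 2-fold above for 15. Comparison groups were chosen by marker genes, so these ratios describe the members and carry no test.

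Among the transcription factors that led, Hmx2 had 97.6 CPM in members of RA and 123 CPM in those of RA+BMP4, and 3.06 CPM or less in every comparison group of either library. Hmx3 had 63.2 and 80.6 CPM, against at most 3.18 CPM. Bhlhe23, a basic helix-loop-helix repressor gene, had 22.9 and 39.0 CPM, against at most 2.30 CPM. Nr4a2 had 60.7 and 121 CPM, and its closest group was the Pax2 cells with 23.1 and 14.2 CPM. The gene of the LIM-only cofactor Lmo3 had 61.7 and 39.0 CPM, against at most 4.17 CPM. Pou4f2 had 31.4 and 56.6 CPM, but Tlx3 cells of RA had 26.5 CPM, so that its ratio was 1.15 in RA and 4.2 in RA+BMP4. Foxp2, a forkhead gene, had 80.1 and 103 CPM, with ratios of 3.02 and 2.59. It was found in 19.1% (12.4 to 27.5) and 25.8% (21.4 to 30.5) of members and in 12.6% (8.44 to 17.7) and 19.1% (13.3 to 26.1) of collagen-rich cells, intervals that overlap. In RA+BMP4 the Barhl, Pax2 and Tlx3 cells had Foxp2 in 3.53%, 7.60% and 16.0% after thinning.

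Genes of signalling, adhesion and excitability also led. Arl4d, which encodes a small GTPase, had 67.2 and 103 CPM and ratios of 5.99 in RA and 7.40 in RA+BMP4. Kcnk9, which encodes a leak potassium channel, had 60.2 and 54.9 CPM, with ratios of 6.62 and 3.24. The gene of the kinase scaffold Akap12 had 438 and 569 CPM, with ratios of 2.96 and 4.30. The adhesion gene Ntm had 242 and 357 CPM, with ratios of 3.84 and 3.21, and the kinase gene Cdk14 ratios of 2.41 and 4.15. Cbln1, which encodes a secreted synapse organiser, had 84.6 and 126 CPM, with ratios of 1.93 and 2.85. The exception in RA was Cacna2d1, a calcium channel subunit gene, whose ratio was 0.927 in RA and 2.55 in RA+BMP4.

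**Figure D2:**
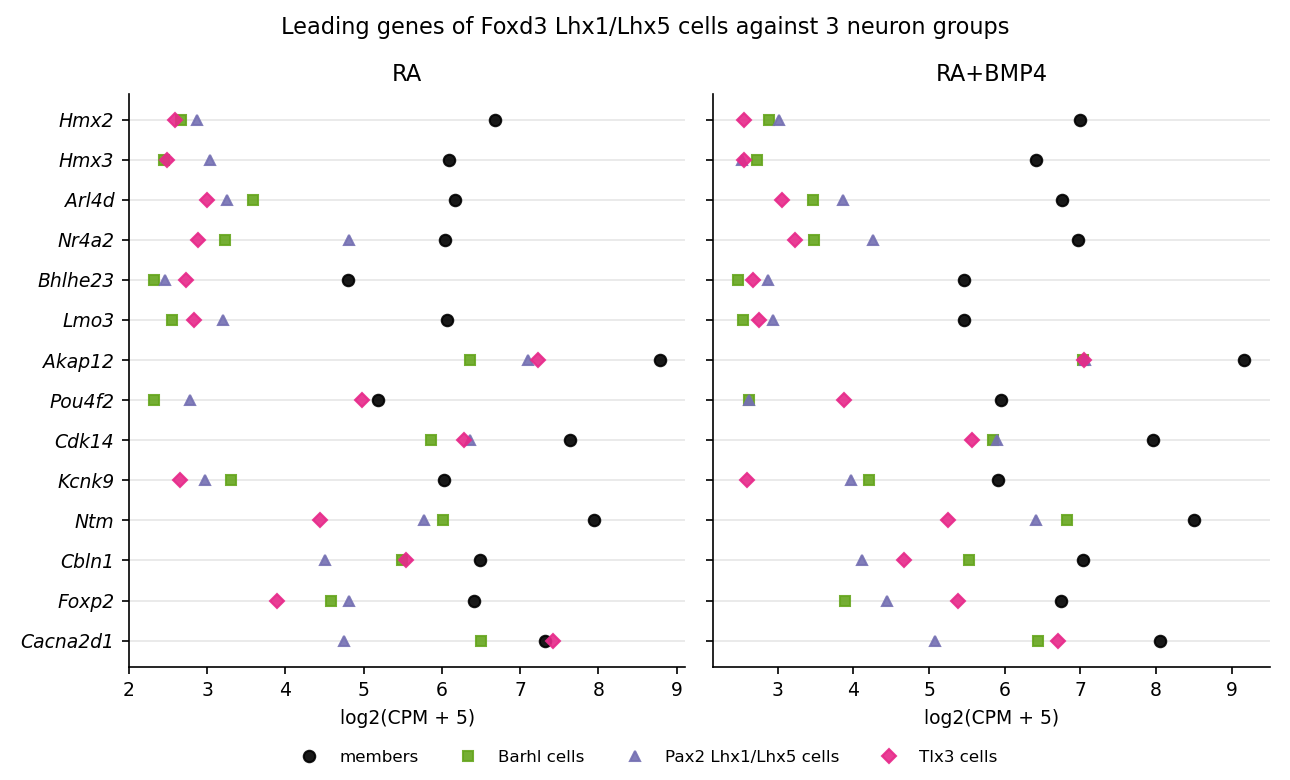
Levels of 14 of the 20 genes highest in RA+BMP4 members over 3 neuron groups, those described in the text, as log2 of CPM with 5 CPM added, for RA (left) and RA+BMP4 (right); circles are members and the other symbols the comparison groups. Hmx2 and Hmx3 show the widest gaps in both libraries, and in RA Cacna2d1 of the Tlx3 cells lies above the members.

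At the low end, Chmp2b, an endosomal sorting gene, had 23.4 CPM in RA members and 18.3 CPM in RA+BMP4 members, against 120 and 487 CPM in Barhl cells and 41.0 and 63.6 CPM in Tlx3 cells. Rprm, which encodes a cell cycle inhibitor, had 17.9 and 17.7 CPM, against 68.3 and 237 CPM in Barhl cells. Ptn, the gene of the growth factor pleiotrophin, had 247 and 255 CPM, against 520 and 845 CPM in Barhl cells. Barhl cells are the only group shown for Rprm and Ptn. As given above, 0 of 8009 genes (0%) were 2-fold below all 3 groups in both libraries. The somatostatin gene Sst took a middle place, with 587 CPM (RA) and 353 CPM (RA+BMP4) in members. Pax2 cells had 1564 and 961 CPM of Sst, and Barhl cells 9.25 and 74.0 CPM. After thinning, Sst was found in 36.5% of RA and 34.8% of RA+BMP4 members, against 5.12% and 1.91% of collagen-rich cells. Robo3, the receptor gene that marks commissural axons before crossing, was found in 59.1% (49.6 to 68.2) and 71.5% (66.7 to 76.1) of members, against 2.33% and 5.73% of collagen-rich cells. Commissural guidance genes as a list did not set members apart from other neurons. The 23 genes summed to 1933 and 2387 CPM in members and 1940 and 2418 CPM in Barhl cells. Pax2 cells had 1836 and 1984 CPM of them, and Tlx3 cells 1454 and 1558 CPM.

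The comparison of RA+BMP4 with RA members covered 6907 genes with at least 20 CPM in 1 library. In RA+BMP4 members 49 of them (0.709%) were higher by 2-fold or more, 36 (0.521%) were lower by as much, and the median log2 ratio over all of them was 0.05. The counts given for gene lists below are to be read beside these 2 shares. The genes that were lower included markers and transmitter genes of inhibitory neurons, and those that were higher included Hoxc9, glycolysis genes and genes known from the roof plate. The dI2 markers were not among them. Hmx2 had a log2 ratio of 0.33 (0.10 to 0.58), Hmx3 of 0.35 (0.06 to 0.65) and Nr4a2 of 0.99 (0.71 to 1.28), the last just short of 2-fold. Of 49 genes that were higher, 2 had over 25% of their counts from 1 cell, and of 36 that were lower, 9 did.

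**Figure D3:**
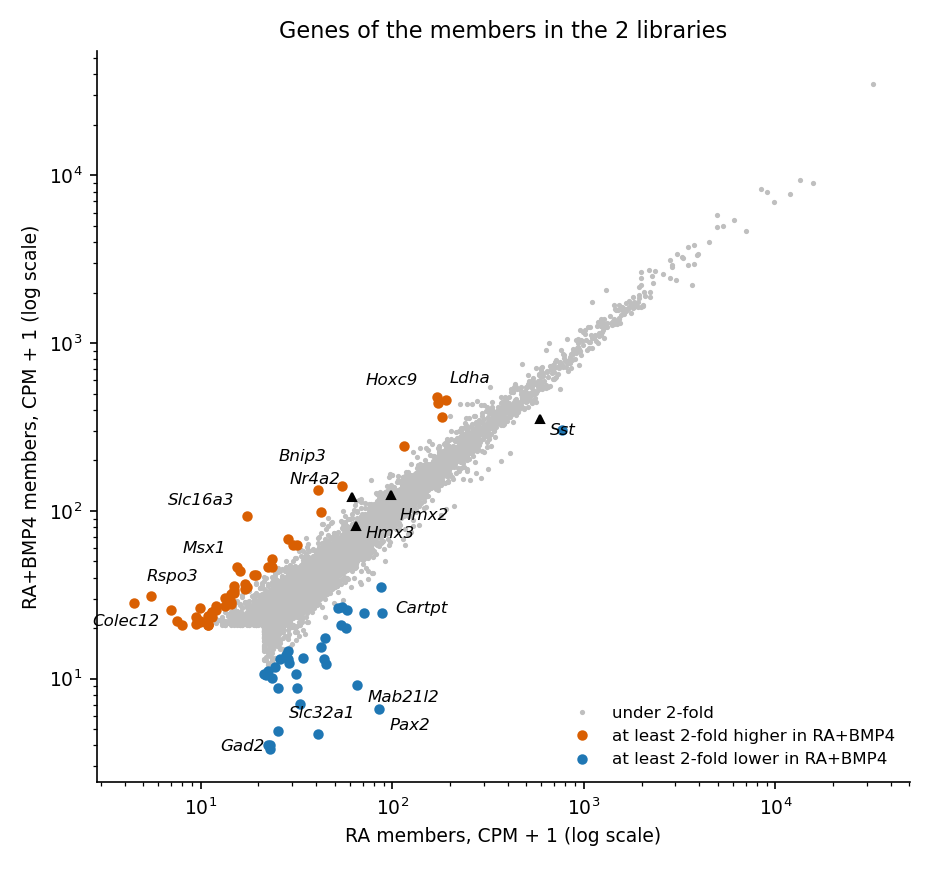
CPM of RA members against RA+BMP4 members for the 6907 genes tested, with 1 CPM added, both axes on a log scale; coloured points are the 49 higher (orange) and 36 lower genes (blue), and triangles mark Hmx2, Hmx3, Nr4a2 and Sst, none of them called. Hoxc9, Slc16a3 and Ldha lie above the diagonal and Pax2, Gad2 and Mab21l2 below it, while Hmx2 and Hmx3 lie close to it.

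Inhibitory genes stood among those that were lower. Pax2, the paired-box gene of most inhibitory spinal neurons, went from 84.6 to 5.60 CPM with BMP4, a log2 ratio of -3.92 (-4.57 to -3.32). It was seen in 31 of 116 RA members and 12 of 388 RA+BMP4 members. After thinning, Pax2 was found in 22 of 115 (19.1%, interval 12.4 to 27.5) and 9 of 376 (2.39%, interval 1.1 to 4.5), a share ratio of 0.125. Collagen-rich cells had it in 0.465% and 0% (0 of 157 allows up to 2.32%). Gad2, a GABA synthesis gene, fell from 21.9 to 3.02 CPM, a log2 ratio of -2.86. Slc32a1, the vesicular inhibitory transmitter transporter gene, fell from 24.4 to 3.88 CPM, a log2 ratio of -2.65. Of 10 inhibitory factor genes 4 reached the level for testing. In that list 3 were lower (Pax2, Bhlhe22 with a log2 ratio of -2.40, and Sall3 with -1.14), 0 were higher, and the median was -1.77. The Sall3 call was lost under 6 alternatives, with -0.92 without called doublets and -0.70 without the deepest member of each library. Of 7 GABAergic and glycinergic genes 3 were tested, and 2 were lower. Lbx1 (14.4 and 1.94 CPM) and Pax8 (15.9 and 1.51 CPM) were under the level for testing in both libraries. Lower inhibitory genes were not confined to members. The median of the inhibitory factor list was -1.34 in Barhl cells and -1.31 in Tlx3 cells. It was 0.08 in Pax2 cells, which hold Pax2 by choice. Over passing cells outside the members, the dI4 markers fell from 112 to 36.9 CPM with BMP4. Pax2 cells made up 750 of 6038 passing cells with RA and 277 of 8650 with RA+BMP4.

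Further genes that were lower were Cacna2d3, a calcium channel subunit gene, which went from 39.8 to 3.66 CPM, and Mab21l2, a neural patterning gene, which went from 64.7 to 8.18 CPM. The Iroquois gene Irx2 had 21.9 and 2.80 CPM, and Nxph1, which encodes a neurexin ligand, 30.9 and 7.75 CPM. Hoxaas3, an antisense transcript of the HoxA cluster whose reads cannot be told from overlapping genes unless counting used strand, had a log2 ratio of -1.97. Some of these differences rested on 1 cell. Ifitm1 was seen in 4 RA members and had 93.0% of its counts from 1 of them. Cartpt, a neuropeptide gene, went from 87.6 to 23.7 CPM with 72.2% of its RA counts from the deepest cell. Its log2 ratio was -1.89, and -0.44 without called doublets, and Slco3a1 had 51.2% of its RA counts from 1 cell.

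Hoxc9 was higher with BMP4, 169 CPM becoming 473 CPM, and the log2 ratio was 1.48 (1.32 to 1.65). Hox genes of paralog groups 9 and above pattern thoracic and more caudal levels. Hoxc9 was found in 41.7% (32.6 to 51.3) of thinned RA members and 77.1% (72.5 to 81.3) of RA+BMP4 members, against 1.86% and 6.37% of collagen-rich cells. Its log2 ratio was 1.61 in Barhl cells, 1.35 in Pax2 cells and 0.60 in Tlx3 cells. Of 15 genes of groups 9 to 13, 3 were tested and 1 was higher, with log2 ratios of 0.84 for Hoxa9 and 0.25 for Hoxb9. In groups 1 to 5, 0 of 9 tested genes were 2-fold apart (median -0.19), and in groups 6 to 8, 0 of 8 (median -0.25). Within those groups the HoxA genes Hoxa2, Hoxa3, Hoxa5 and Hoxa7 had log2 ratios of -0.85, -0.59, -0.90 and -0.70, short of the 2-fold call. Hoxa4 lay at the limit itself, with 22.4 CPM in RA and 11.2 CPM with BMP4.

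Genes linked to BMP and roof plate signals were higher in part. Rspo3, a Wnt agonist made by the roof plate, went from 4.48 to 30.2 CPM (log2 ratio 2.75, interval 1.78 to 3.91) and was seen in 5 and 36 members. Msx1, a BMP-induced homeobox gene of the dorsal midline, went from 14.4 to 45.2 CPM (log2 ratio 1.65, interval 1.08 to 2.26). The 4 roof plate markers summed to 14.4 CPM in RA members and 53.2 CPM in RA+BMP4 members, and to 81.3 and 243 CPM over all passing cells that were not members. The part of free RNA or mixed droplets in these values was not tested. Collagen-rich cells had Rspo3 in 10.7% and 21.7%, above the 0.870% and 4.79% of members. How much of that share is RNA that collagen-rich cells make themselves was not tested. Msx1 was found in 0.870% and 12.2% of members and in 2.33% and 7.01% of collagen-rich cells. Of 12 BMP response genes 6 were tested and 1 was higher (Msx1), with a median of 0.22. Id1, a direct BMP target, had a log2 ratio of 0.77 (0.36 to 1.21), Id2 of 0.22 and Id3 of 0.04, none of them 2-fold.

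Genes of hypoxia and glycolysis were higher in RA+BMP4 members as a list, with 5 of 14 tested genes at least 2-fold higher, 0 lower and a median log2 ratio of 0.89. Over all tested genes 0.709% were higher and 0.521% lower, with a median of 0.05. Bnip3, a hypoxia-induced mitophagy gene, had 53.3 and 140 CPM. Ldha, which makes lactate from pyruvate, had 189 and 456 CPM. The others were P4ha1 (log2 ratio 1.23), the glucose transporter gene Slc2a3 (1.21) and Pdk1 (1.18), and outside the list the lactate transporter gene Slc16a3 went from 16.4 to 92.8 CPM (log2 ratio 2.5, interval 1.99 to 3.06). The list moved in the same direction in the other groups, with medians of 0.68 in Barhl, 1.28 in Pax2 and 1.01 in Tlx3 cells.

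The mitochondrial share of a cell moved with this list, in a split that was chosen after the values were seen. At most 5% mitochondrial UMIs was found in 18 of 116 RA members (15.5%) and 278 of 388 RA+BMP4 members (71.6%). Within that range the 18 list genes summed to 4014 CPM (RA) and to 4113 CPM (RA+BMP4), and Ldha had 489 and 499 CPM. Not all of the difference was gone there, as Slc16a3 had 52.1 and 103 CPM and Pdk1 8.01 and 27.1 CPM. In the other groups the low range still differed between the libraries, with 3211 and 4093 CPM in Barhl cells, 3033 and 5194 CPM in Pax2 cells and 3924 and 5380 CPM in Tlx3 cells. Above 5% they summed to 2303 CPM in 98 RA members and 3334 CPM in 110 RA+BMP4 members. Under a stricter filter, 2000 or more genes and 5% or less mitochondrial UMIs, the median of the list was -0.06, with 1 of 15 genes higher and 1 lower. The calls of Slc16a3, Msx1, Bhlhe22 and Mab21l2 were also lost in those 18 RA and 274 RA+BMP4 members, with log2 ratios of 0.98, 0.62, -0.91 and -0.71. Hoxc9 did not move with the split, at 160 and 474 CPM in the low range and 171 and 472 CPM above it. The part of cell quality in the glycolysis difference was not tested.

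**Figure D4:**
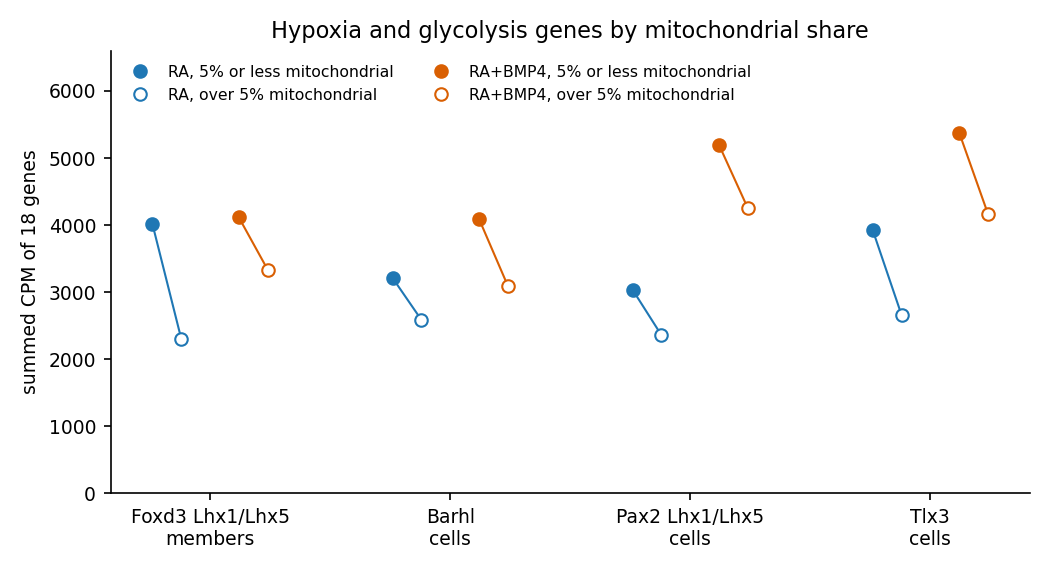
Summed CPM of the 18 hypoxia and glycolysis genes in members and 3 comparison groups, split at 5% mitochondrial UMIs (filled, at most 5%; open, over 5%), for RA (blue) and RA+BMP4 (orange), 1 value for each library and subset. Cells with the lower mitochondrial share had the higher sum in all 8 pairs, and the filled points of the 2 libraries lie at 4014 and 4113 CPM in members.

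Many other lists held no gene that was 2-fold apart. With 0.709% of all tested genes higher and 0.521% lower, lists of this size would hold few such genes in any case. Of 28 neuronal maturation genes 0 were 2-fold apart, with a median of 0.02, and of 13 neurogenesis genes 0, with a median of 0.07. The same held for 17 commissural guidance genes (median 0.21), 16 LIM partners and cofactors (0.04), 11 temporal factors (-0.15), 6 retinoic acid pathway genes (0.41) and 11 immediate early and heat shock genes (0.10). Robo3 had a log2 ratio of 0.42 (0.30 to 0.55), Dcc, the netrin receptor gene, of 0.72, and Cntn2, an axon adhesion gene, of 0.45. Crabp1, a retinoic acid binding protein gene, went from 1299 to 2074 CPM, a log2 ratio of 0.68. Exceptions among adhesion and guidance genes were Efna5 (-1.06), which stayed 2-fold lower under every alternative run, and Sema3a (-1.01) and Cdh8 (-1.31), which did not. The Sema3a ratio was -0.97 without called doublets and 0.40 under the stricter filter, and the Cdh8 ratio was 1.34 without Pax2-positive cells. Among 3 tested Wnt targets Ccnd1 was lower (-1.56), with 0.0215 without Pax2-positive cells.

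Many of the calls were not seen in members alone. Of the 49 genes that were higher, 23 (46.9%) were also called higher in Barhl cells, where 4.64% of all tested genes were, 19 (38.8%) in Pax2 cells (1.11% of all tested) and 19 in Tlx3 cells (5.83%). Of the 36 that were lower, 5 (13.9%) were called lower in Barhl cells (1.38% of all tested), 6 (16.7%) in Pax2 cells (0.299%) and 7 (19.4%) in Tlx3 cells (3.97%). These groups share the libraries with the members. Pax2 cells by choice hold Pax2 in both libraries, and their log2 ratios of Gad2 and Slc32a1 were 0.06 and 0.54. In groups not chosen by Pax2 the 7 GABAergic and glycinergic genes had lower sums with BMP4. They summed to 75.4 and 47.2 CPM in Barhl cells and 89.8 and 42.0 CPM in Tlx3 cells, against 161 and 71.9 CPM in members.

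The RA members with Pax2 differed in many genes from those without. This split, like those by Nr4a2 and Neurog2 that follow, was chosen after values were seen. The 31 RA members with a UMI of Pax2 had a median depth of 14334 UMIs and the 85 without it 15159. Of 7103 genes, 392 (5.52%) were 2-fold or more above the Pax2-negative cells and 111 (1.56%) were 2-fold or more below. For RA+BMP4 these shares were 9.46% and 4.69%, with only 12 Pax2-positive cells. Among the higher genes were markers and transmitter genes of inhibitory neurons. Pax8, a paired-box relative of Pax2, had 49.7 against 0.722 CPM, Gad2 60.9 against 4.33 CPM (log2 ratio 3.81, interval 2.56 to 5.35) and Slc32a1 65.7 against 5.78 CPM. En1 had 144 against 41.1 CPM, a log2 ratio of 1.81 (1.32 to 2.32), Foxp2 151 against 48.4 CPM and Sst 1031 against 387 CPM. Cacna2d3 and Nxph1, named above as lower in RA+BMP4, had log2 ratios of 3.65 and 4.13, and Mab21l2 of 1.69. The dI2 markers went the other way, Hmx2 with 25.7 against 130 CPM (-2.34, interval -3.18 to -1.60) and Hmx3 with 32.1 against 77.2 CPM (-1.27). Pou4f1 had 59.3 against 245 CPM, and Ntm and Akap12 had log2 ratios of -1.85 and -1.88.

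Among 22 thinned RA members with Pax2, En1 was seen in 11 (interval 28.2 to 71.8%), Gad2 in 7 (31.8%), Slc32a1 in 8 (36.4%) and Hmx2 in 1 (4.55%, interval 0.115 to 22.8). Among 93 without Pax2, they were seen in 20.4%, 3.23%, 4.30% and 44.1% (33.8 to 54.8). Hmx3 was seen in 5 of 22 with Pax2 (22.7%, interval 7.82 to 45.4) and 26 of 93 without (28.0%, interval 19.1 to 38.2), which overlap. Nr4a2 was seen in 0 of 22 and 19 of 93 (20.4%). In RA+BMP4, 0 of 9 thinned members with Pax2 had En1, too few to compare. The values for the Pax2-positive RA members go against the dI2 label in part, since Pax2, En1 and inhibitory transmitter genes are not those of dI2 neurons. Without thinning, 13 of these 31 cells had a UMI of Hmx2 or Hmx3. The cells with Pax2 are called Pax2-positive members and given no other name. Without called doublets the log2 ratios of Gad2, En1 and Hmx2 were 3.92, 2.09 and -2.11.

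Among all members, 49 of 6907 genes (0.709%) were higher with BMP4 and 36 (0.521%) lower. With the Pax2-positive cells left out of both libraries, 85 RA and 376 RA+BMP4 members remained. The comparison of RA+BMP4 with RA then called 109 genes higher and 20 lower, without a share, as the total tested was not kept. What the smaller number of cells brings to these counts was not tested. The log2 ratios of Gad2 and Slc32a1 were then -0.69 and -0.89, short of the call, and those of Nxph1 and Cdh8 were 0.67 and 1.34.

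A second axis ran through the members of both libraries along Neurog2, the proneural gene of newborn dorsal neurons. Neurog2 was found in 11.3% (6.16 to 18.6) of thinned RA members and 16.5% (12.9 to 20.6) of RA+BMP4 members. It was found in 0 of 215 and 0 of 157 collagen-rich cells, which allow up to 1.70% and 2.32%. Without thinning, 24 RA and 88 RA+BMP4 members had it. Between members with and without Neurog2 in RA+BMP4, 164 of 7090 genes (2.31%) were 2-fold or more higher and 140 (1.97%) lower by as much. In RA these shares were 4.76% and 3.98%. The genes named here were chosen after their values were seen. Neurod4, a proneural gene of differentiating neurons, had 145 against 14.8 CPM in RA (log2 ratio 3.29) and 146 against 15.4 CPM with BMP4 (3.24). Nhlh1, a helix-loop-helix gene of newborn neurons, had log2 ratios of 2.02 and 2.44, Gadd45g of 2.62 and 2.19, Ebf2 of 1.89 and 1.74 and Insm1 of 1.56 and 1.81. Olig3, a gene of the dorsal progenitors that give rise to dI1 to dI3 neurons, had 63.6 against 12.1 CPM in RA and 101 against 18.3 CPM in RA+BMP4.

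Other genes were lower in the same cells. The microtubule regulator gene Stmn4 had log2 ratios of -1.49 in RA and -1.73 in RA+BMP4, and Lmo3 of -2.15 and -2.47. Nr4a2 had 7.71 against 79.2 CPM in RA (log2 ratio -3.36) and 42.1 against 146 CPM with BMP4 (-1.79). Zfhx3, a zinc finger homeobox gene of differentiating neurons, was seen in 38.5% of 13 RA and 62.9% of 62 RA+BMP4 members with Neurog2 after thinning, and in 90.2% and 90.4% of those without. Robo3 was seen in 48.4% (35.5 to 61.4) of RA+BMP4 members with Neurog2 and 76.1% (71.0 to 80.7) without. Sst was seen in 56.5% (43.3 to 69.0) of thinned RA+BMP4 members with Neurog2 and 30.6% (25.5 to 36) without. Hmx2 and Hmx3 did not follow this axis, with log2 ratios of 0.05 and 0.18 in RA and 0.16 and 0.05 in RA+BMP4, all short of the call. Bhlhe23 differed between the libraries, with a log2 ratio of -0.52 (-1.75 to 0.56) in RA and 1.45 (1.01 to 1.88) in RA+BMP4. That difference was not tested.

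Nr4a2 split the RA+BMP4 members into cells with different partner genes. The 116 cells with Nr4a2 had a median depth of 10539 UMIs and the 272 without it 10887. Of 7042 genes, 146 (2.07%) were 2-fold or more higher in Nr4a2-positive cells and 102 (1.45%) lower by as much, and in RA these shares were 2.45% and 2.07%. Sst had 31.4 CPM in Nr4a2-positive and 492 CPM in Nr4a2-negative RA+BMP4 members, a log2 ratio of -3.97 (-4.43 to -3.54). Foxp2 had 255 against 36.7 CPM, a log2 ratio of 2.80 (2.49 to 3.11). After thinning, Foxp2 was seen in 47 of 79 cells with Nr4a2 (59.5%, interval 47.9 to 70.4) and 50 of 297 without (16.8%, interval 12.8 to 21.6). Sst was seen in 5 of 79 (6.33%, interval 2.09 to 14.2) and 126 of 297 (42.4%, interval 36.7 to 48.3).

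Several genes that were higher with Neurog2 were lower in Nr4a2-positive cells of both libraries, with log2 ratios of Nhlh1 of -1.98 in RA and -2.58 in RA+BMP4, of Nhlh2 of -1.02 and -2.14, and of Neurod4 of -1.32 and -2.37. Arl4d had 23.3 against 92.1 CPM in RA and 27.1 against 135 CPM in RA+BMP4, and after thinning it was seen in 0 of 19 and 3 of 79 (3.8%) cells with Nr4a2, against 27.1% and 44.4% of those without. Bhlhe23 had log2 ratios of -3.06 and -1.72. In RA+BMP4 Hmx2 had 72.1 against 145 CPM (log2 ratio -1.01, interval -1.33 to -0.69), and in RA its log2 ratio was -0.47. Pou4f1, Robo3 and Stmn2 were within 2-fold, at -0.16, -0.02 and -0.01 in RA+BMP4. Slc17a6, low in the members as a whole, had 20.7 against 5.24 CPM there (log2 ratio 1.98, interval 1.07 to 2.94).

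The RA library did not show the Sst and Foxp2 contrast to the same size. Sst had 511 CPM in 35 RA members with Nr4a2 and 630 CPM in 81 without, a log2 ratio of -0.30 (-0.48 to -0.12), and -1.21 without called doublets. Foxp2 had a log2 ratio of 0.55 (0.08 to 1.01) in RA, and 0.87 without called doublets. In thinned RA cells Sst was seen in 3 of 19 with Nr4a2 (15.8%, interval 3.38 to 39.6) and 40.6% without, and Foxp2 in 26.3% and 17.7%. The Pax2-positive RA members held much of both Sst and Foxp2, as given above. The difference between the libraries was not tested.

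**Figure D5:**
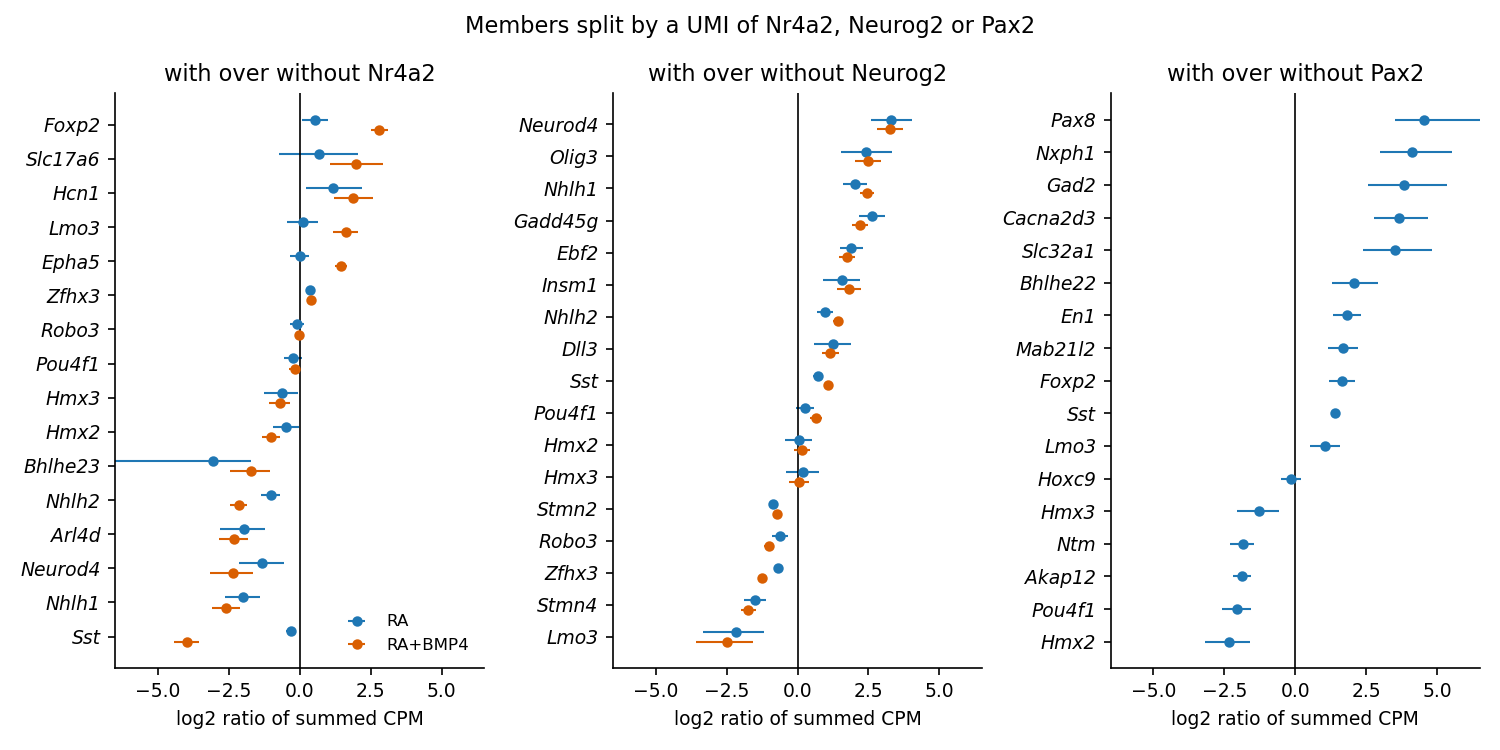
Log2 ratio of summed CPM between members with and without a UMI of Nr4a2 (left), Neurog2 (middle) or, for RA only, Pax2 (right), with exact 95% intervals that end at the axis limit for Bhlhe23 and Pax8 in RA; blue is RA and orange RA+BMP4. Sst lies far left of 0 among RA+BMP4 cells with Nr4a2, Neurod4 far right for Neurog2 in both libraries, and Hmx2 far left for Pax2.

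The split by a UMI of Hmx2 or Hmx3 gave fewer differences in RA+BMP4. Between 262 cells with and 126 without, 11 of 7034 genes (0.156%) were called higher and 102 (1.45%) lower. Tppp3, a tubulin-binding protein gene, had 87.5 against 41.1 CPM, a log2 ratio of 1.09, and 1.10 in RA. Kit, a receptor tyrosine kinase gene, had 28.1 against 9.93 CPM, a log2 ratio of 1.5 (0.70 to 2.40), and 0.47 in RA. Pcdhb17, a member of the clustered protocadherins whose reads may be split among near copies, had log2 ratios of 1.17 and, in RA, 0.93. Nr4a2 had 84.3 against 196 CPM, a log2 ratio of -1.22, and -1.20 in RA. In RA, with 74 against 42 cells, 132 of 7065 genes (1.87%) were higher and 259 (3.67%) lower. The Pax2-positive cells lay mostly on the negative side there, with Pax2 at 39.0 against 186 CPM, Foxp2 at 36.8 against 176 CPM and Akap12 at 565 against 156 CPM. The lowest genes in RA+BMP4, Mgp, F3 and Colec12, are genes of mesenchyme or other non-neural cells, with log2 ratios of -5.20, -2.90 and -2.87, and for Mgp 96.3% of the counts came from 1 cell.

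Hmx3 was seen more often in members with Hmx2. Without thinning it was found in 47 of 61 RA members with Hmx2 (77%, interval 64.5 to 86.8) and 13 of 55 without (23.6%, interval 13.2 to 37.0). In RA+BMP4 it was found in 60.8% (53.6 to 67.7) of members with Hmx2 and 35.1% (28.4 to 42.2) of those without, and in neither library did the intervals overlap. At equal depth, after thinning, Hmx3 was found in 16 of 42 RA members with Hmx2 (38.1%, interval 23.6 to 54.4) and 15 of 73 without (20.5%, interval 12 to 31.6), intervals that overlap. In RA+BMP4 it was found in 52 of 135 with Hmx2 (38.5%, interval 30.3 to 47.3) and 59 of 241 without (24.5%, interval 19.2 to 30.4), which overlap at their ends.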

How the data were processed

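Single-cell RNA libraries (10x Genomics, version 3 chemistry) of 2 conditions were deposited by the authors as unnormalised UMI counts per gene and barcode, 1 library each. Cell Ranger 3.0.2, CASAVA and GRCm38 are named in the submitters' processing notes, and the sources used here do not give further steps. Barcodes were kept from 1000 genes up and to 10% mitochondrial UMIs. The members, gene lists and splits were chosen with earlier results of these data known. Counts were summed over the cells of a group and scaled to CPM, as cells are not replicates, and no count model was fitted. A gene was called at 20 CPM or more in 1 library and a 2-fold difference. Intervals are exact 95% binomial intervals of the counts, or of the shares (Clopper-Pearson), and cover counting error only, since the cells of a library share its culture. In log2 ratios a summed count below 3 was set to 3. Shares were computed after each cell was thinned to 5000 UMIs.

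Genes were named by rule: the 20 highest and 10 lowest by ratio to the comparison groups in RA+BMP4, the 12 highest and 12 lowest ratios between the libraries at 20 CPM or more, the 8 highest and 8 lowest between RA+BMP4 members with and without Hmx2 or Hmx3, and the members of the lists, without predicted genes, mitochondrial genes and the 7 genes that chose the members. Genes outside that rule were chosen after their values were seen. Not every gene the rule names is reported here. Gene positions are those of GENCODE vM21, matched by gene ID, and promoter windows those of RefSeq on GRCm38.p6. Scrublet in scanpy 1.11.5 called doublets, and edgeR 4.0.16 gave TMM factors for an alternative scaling. Python 3.11.15, numpy 2.4.6, scipy 1.17.1, pandas 2.3.3 and matplotlib 3.10.9 were used. The 2-fold call was tested on simulated counts of the RA+BMP4 against RA comparison, over 31053 genes with 200 changed. It called 100% of those changed 2.5-fold, 4% of those changed 1.5-fold and 1 of 6565 unchanged genes. The simulated counts held counting error only (Poisson), with no variation between cells, cultures or libraries. These shares are therefore not error rates of the calls in the real data.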

Additional observations from a re-analysis of the deposited data

Results flagged for a closer look

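For 5 genes called in members, the log2 ratio of RA+BMP4 over RA had the opposite sign in the Barhl cells of the same libraries, where they were called as well. Mab21l2, a neural patterning gene, had -2.98 in members and 1.42 in Barhl cells. Dab1, a Reelin signalling adaptor gene, had -1.38 (members) and 1.61 (Barhl cells). Sema3a, a repulsive guidance cue gene, had -1.01 and 1.24. Rbfox1, a neuronal splicing factor gene, had -1.07 in members and a positive ratio in Barhl cells. Svil, which encodes an actin-binding protein, had 1.10 and -1.14. With 1 library for each condition the difference between the groups was not tested, and the sign in members turned for Sema3a under the stricter cell filter.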

How the results depend on the processing

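No paired analysis was possible because each condition had 1 library and the labels carry no replicate numbers. The count of genes leading in both libraries (11 to 22) and the ratio of the Hmx2 or Hmx3 share (0.849 to 1.06) held under every alternative run. A stricter filter of 2000 or more genes and 5% or less mitochondrial UMIs left 18 RA and 274 RA+BMP4 members. The ratio of member shares was then 3.15, with 316 genes higher and 450 lower, and the log2 ratios of Sema3a, Slc2a3 and Cartpt were 0.40, -0.10 and 0.89. With at least 2 UMIs of Foxd3, 93 were higher and 55 lower, the Pax2 share ratio was 0.0415 and Ifitm1 was at 0.43. With at least 4 UMIs of Lhx1 and Lhx5, 57 were lower and Ifitm1 was at 1.05. With the rule applied after thinning, the ratio of member shares was 3.21, 117 were higher and 120 lower, the Pax2 share ratio was 0.0348 and Colec12 was at -1.18. At 10 CPM 122 were higher and 82 lower, and at 50 CPM 13 and 11. Among members with Hmx2 or Hmx3, 76 were higher and Ifitm1 was at 0.0451. Among members without Pax2, 109 were higher and 20 lower, and Nxph1, Ccnd1, Cdh8 and Cartpt were at 0.67, 0.0215, 1.34 and 0.26. Alternatives chosen after seeing the data left out the deepest member of each library, or the cell with the most counts of each gene. The first gave 57 higher and 34 lower, the second 23 lower and Ifitm1 at 0.65. TMM scaling called 40 higher and 39 lower, and removing doublets 56 and 35. Of 38 named genes called, 10 stayed 2-fold apart under every alternative, among them Hoxc9, Rspo3, Cacna2d3 and Pax2. For Pax2 the alternative without Pax2-positive cells cannot decide, since no Pax2 counts remain by choice. Its ratio there comes from counts set to 3 and the library totals. Beyond what fewer cells or genes bring, the cause was not tested.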
